A study of Mus musculus with 18 samples.

Results

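The genes of the major histocompatibility complex (MHC) and of antigen presentation were followed through 18 cortex transcriptomes of a mouse stroke model. They were chosen by name: every gene whose symbol starts with H2-, plus B2m, Tap1, Tap2, Tapbp, Cd74, Ciita and Nlrc5. This gave 43 of the 37319 genes in the deposited table, of which 36 carry an H2- symbol. The naming rule uses no measured value. Of the 43, 23 reached at least 1 FPKM (fragments per kilobase of transcript, scaled by the mapped fragments of the library) in at least 3 of the 18 libraries, and 20 did not. A GENCODE annotation of the mouse genome places 39 of them on chromosome 17, B2m on chromosome 2, Nlrc5 on chromosome 8, Ciita on chromosome 16 and Cd74 on chromosome 18.

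The mice were adult males of the strain C57BL/6J, 8 to 10 weeks old and of 24 to 26 g. Each received an adeno-associated virus (AAV) in the left lateral ventricle, with a short hairpin RNA (shRNA) that was either a scramble control (control arm, C) or directed at Tiparp (Tiparp arm, T). The labels call the virus neuron-specific and name it AAV-SYN, so the other cell types of the tissue are not its stated target. After 4 weeks the mice had a sham operation or tMCAO, a transient block of the middle cerebral artery that is then reopened. RNA of the ipsilateral cortex was sequenced after sham operation, 24 h after tMCAO or 28 d after it. The labels give no time for the sham tissue, and the same sham libraries are the baseline for both times. The 6 groups, Sham_C, Sham_T, R24h_C, R24h_T, R28d_C and R28d_T, hold 3 libraries each. The sham groups carry the same viruses as the stroke groups of their arm. The labels do not state that the libraries are separate mice, so the p-values refer to the spread among these libraries, which may be technical.

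Class I molecules sit on nearly all nucleated cells. A heavy chain, encoded by H2-K1, H2-D1 or a less polymorphic class Ib gene, pairs with beta-2-microglobulin (B2m) and shows CD8 T cells peptides from inside the cell. The transporter Tap1-Tap2 brings these peptides into the endoplasmic reticulum, and tapasin (Tapbp) holds the heavy chain close to it. Class II molecules, pairs of an alpha and a beta chain, are made mainly by professional antigen-presenting cells and show CD4 T cells peptides from endosomes. The invariant chain (Cd74) guards their groove until H2-DM exchanges its remnant for a peptide. Nlrc5 and Ciita are the transactivators of class I and class II promoters. In healthy brain, neurons, astrocytes and microglia carry little of either class, and microglia and macrophages that enter the tissue can display both after injury.

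The start regions of the leading class I and class II genes are shown because these genes are described together below and because promoters of the family share short elements. RefSeq start regions (GRCm38.p6) were found for 29 of the 43 members. The 250 bases before the annotated start are printed 5′ to 3′ on the gene's own strand, with motif matches in capitals. H2-K1 has 2 annotated start sites in this set, and the last listed is shown.
H2-K1, chr17:34000334-34000583, minus strand: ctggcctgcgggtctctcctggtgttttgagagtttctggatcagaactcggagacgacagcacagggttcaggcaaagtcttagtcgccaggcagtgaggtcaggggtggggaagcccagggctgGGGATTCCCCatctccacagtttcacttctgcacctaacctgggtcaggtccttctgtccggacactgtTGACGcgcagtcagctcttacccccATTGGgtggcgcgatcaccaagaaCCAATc
H2-D1, chr17:35262844-35263093, plus strand: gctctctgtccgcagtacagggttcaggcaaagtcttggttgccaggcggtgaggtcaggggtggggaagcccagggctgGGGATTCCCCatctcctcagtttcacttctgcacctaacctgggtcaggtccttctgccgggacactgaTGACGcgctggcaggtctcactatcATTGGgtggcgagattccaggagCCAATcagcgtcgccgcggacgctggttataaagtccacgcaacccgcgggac
B2m, chr2:122147437-122147686, plus strand: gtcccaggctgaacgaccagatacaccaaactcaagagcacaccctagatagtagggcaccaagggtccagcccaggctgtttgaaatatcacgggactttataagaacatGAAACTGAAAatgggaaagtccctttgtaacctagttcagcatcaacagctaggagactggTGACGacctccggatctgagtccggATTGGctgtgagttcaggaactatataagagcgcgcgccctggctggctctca
H2-Aa, chr17:34287824-34288073, minus strand: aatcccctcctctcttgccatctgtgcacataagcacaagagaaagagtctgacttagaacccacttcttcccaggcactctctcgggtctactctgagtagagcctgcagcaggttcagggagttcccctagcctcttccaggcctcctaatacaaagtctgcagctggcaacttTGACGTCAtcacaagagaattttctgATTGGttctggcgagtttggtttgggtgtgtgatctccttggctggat
H2-Eb1, chr17:34305617-34305866, plus strand: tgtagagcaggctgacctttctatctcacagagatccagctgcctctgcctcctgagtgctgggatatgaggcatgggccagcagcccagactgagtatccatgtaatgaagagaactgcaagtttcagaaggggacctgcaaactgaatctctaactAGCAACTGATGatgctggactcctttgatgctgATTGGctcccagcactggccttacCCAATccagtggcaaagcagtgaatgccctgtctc
The motifs were searched on both strands of windows of 250 bases before and 50 bases after the start. They were picked with these promoters in view, so that the gene a motif was read from holds it by choice, and some matches lie beyond the printed bases. GGGATTCCCC, a kappa B site read from H2-K1, starts 170 bases before the start of H2-D1. It lies in 3 of 17 class I heavy chain windows, in 0 of 8 class II windows and in 0.0852% of 32851 mouse start regions. AGCAACTGATG, a form of the X box read from H2-Eb1, lies in 0 of 17 class I heavy chain and 2 of 8 class II windows and in 0.0244% of all. CCAAT, the Y box that NF-Y binds and that reads ATTGG on the other strand, was present in 14 of 17 class I heavy chain and 8 of 8 class II windows, against 37.4% of all. TGACG, a core of cyclic AMP response elements, was in 7 of 17 and 1 of 8 windows, against 20.8% of all, and lies on both strands of H2-Aa with overlap. GAAACTGAAA, an interferon response pattern read from B2m, was in 0 of 17 and 0 of 8, against 0.231%. Only this exact string was searched, so other forms of the pattern in these windows were not looked for. These are letter matches in the reference and not measured sites.

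Some facts of the whole series bear on what follows. Relative depth, read from the lowest FPKM values, was between 0.934 and 1.08 times that of Sham_C1, a rough estimate. Tiparp was at 4.17 to 4.95 FPKM in Sham_T and 3.77 to 4.76 in Sham_C, at 3.01 to 5.00 in R24h_T and 4.60 to 8.65 in R24h_C, and at 3.72 to 4.06 in R28d_T and 3.59 to 4.46 in R28d_C, so the arms overlapped in every condition. Cortical neuron markers (Rbfox3, Snap25, Syt1, Slc17a7, Gad1) summed to 709 to 771 FPKM in sham, and striatal markers were present as well, at 75.9 to 163 FPKM. The choroid plexus gene Ttr was above 100 FPKM in 4 libraries (Sham_T1, Sham_T2, R24h_C3 and R28d_T2, 501 to 1682 FPKM) and at 81.9 FPKM or less in the others. R28d_C1 lay at sham level for the reactive astrocyte gene Gfap, with 37.8 FPKM against 27.5 to 49.5 in sham and 96.8 to 886 in the other R28d libraries, and R28d_T3 was the next lowest of them.

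At 24 h the classical class I heavy chains rose about 3-fold over sham, and their light chain and peptide transporter rose with them. Tests were made with limma on log2(FPKM + 1) over both arms, with the arm as a term, and adjusted over all genes by the Benjamini-Hochberg method. Of 21 members tested, 12 were higher and 0 lower at an adjusted p below 0.05. Among all 14589 genes tested, 19.3% were higher and 5.38% lower. The median log2 difference was 0.79 over the members tested and 0.10 over all genes. For 11 of the 21 every 24 h library lay above every sham library, as for 8.19% of all genes. A member near 0 in sham entered the test only if it was high at 24 h, so these shares describe the tested members alone.

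H2-D1 (ENSMUSG00000073411), a classical heavy chain, was at 8.64, 9.06 and 8.63 FPKM in Sham_C and at 9.97, 10.6 and 8.34 FPKM in Sham_T. The R24h_C libraries held 45.6, 21.1 and 41.0 FPKM and the R24h_T libraries 30.2, 34.4 and 21.0 FPKM. Every 24 h library lay above every sham library. The mean rose from 9.21 ± 0.889 to 32.2 ± 10.2 FPKM (SD, n = 6 each), or 3.50-fold, and the log2 difference was 1.65 (SE 0.18, adjusted p = 0.000319). H2-K1 (ENSMUSG00000061232), the other classical heavy chain of this strain, was at 3.78 to 6.19 FPKM in sham. It was at 19.9, 10.1 and 18.9 FPKM in R24h_C and at 13.6, 15.6 and 9.65 FPKM in R24h_T, again with no overlap. Its log2 difference was 1.40 (SE 0.18, adjusted p = 0.000718), a 3.06-fold rise of the mean. The ratio of H2-D1 to H2-K1 was 1.61 to 2.28 in the sham libraries and 2.10 to 2.30 at 24 h, so the pair moved nearly in step. H2-K2, listed with the classical genes, was at 0.549 ± 0.148 FPKM in sham and 0.936 ± 0.420 at 24 h (SD, n = 6 each) and did not pass (0.30, SE 0.14, adjusted p = 0.133).

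The light chain B2m (ENSMUSG00000060802) was by far the most abundant member. It was at 91.5, 97.3 and 84.0 FPKM in Sham_C, at 103, 116 and 89.6 in Sham_T, at 251, 146 and 226 in R24h_C and at 213, 235 and 169 in R24h_T. It rose 2.14-fold, by a log2 difference of 1.07 (SE 0.14, adjusted p = 0.000718), with no overlap. FPKM of B2m per summed FPKM of H2-K1 and H2-D1 was 6.34 to 7.37 in sham and 3.78 to 5.50 at 24 h, so the heavy chains gained on the light chain in every library. Both transporter subunits rose. Tap2 was at 1.17 to 1.37 FPKM in sham and 2.28 to 4.53 at 24 h (0.97, SE 0.11, adjusted p = 0.000387). Tap1 was at 0.258 to 0.399 FPKM in sham and 0.654 to 2.37 at 24 h (0.87, SE 0.15, adjusted p = 0.00276). Tap1 shares exon positions with Psmb9 on the opposite strand, and although the libraries were made to keep strand, whether reads were assigned by strand is not stated in the sources used here, so reads of the pair may not be told apart. Tapasin, Tapbp, was at 5.00 to 6.08 FPKM in sham and 8.09 to 14.1 at 24 h (0.88, SE 0.13, adjusted p = 0.00109). Tapbp shares exon positions with Zbtb22 on the same strand, so reads of these genes may not be told apart either.

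**Figure D1:**
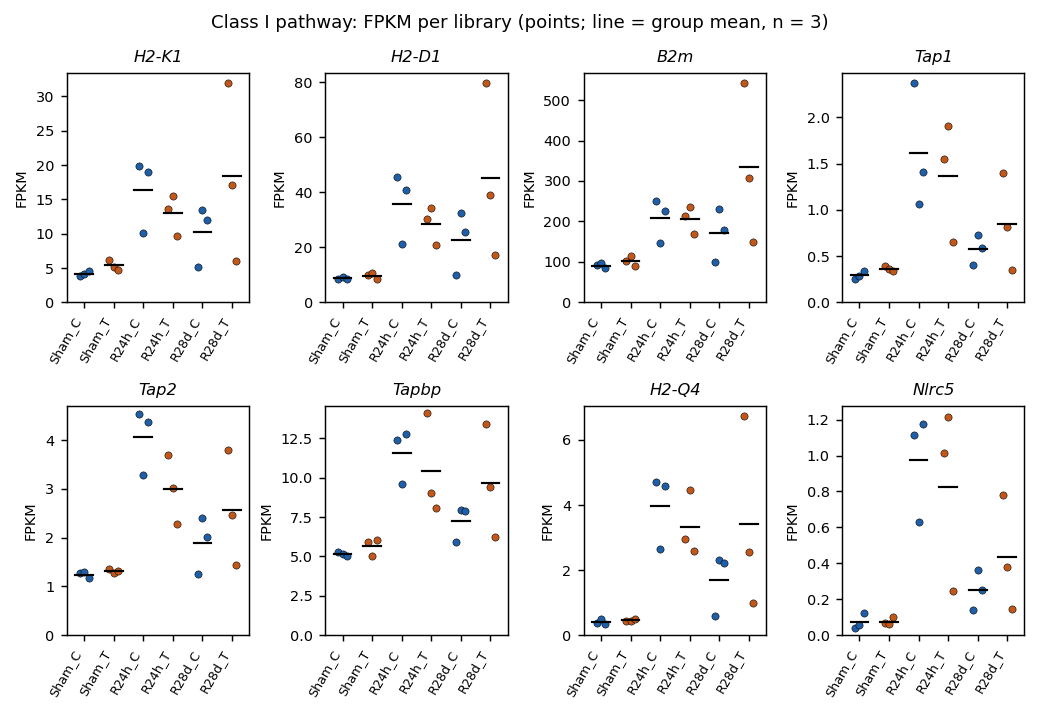
FPKM (vertical axes, linear from 0) of 8 genes of the class I pathway in each library by group; points are libraries (blue, control arm; orange, Tiparp arm) and lines are group means of 3. H2-K1, H2-D1, B2m, Tap1, Tap2, Tapbp, H2-Q4 and Nlrc5 lie above every sham library in all 6 R24h libraries, while the R28d libraries spread from near sham (R28d_C1) to the highest values of the series (R28d_T1) for H2-D1 and B2m.

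Nlrc5, the class I transactivator, was nearly silent in sham. It was at 0.0417 to 0.124 FPKM there and at 0.245 to 1.22 FPKM at 24 h, with 5 of the 6 values at 0.632 or more (0.79, SE 0.14, adjusted p = 0.00295). Its mean was 12.0-fold that of sham, and its log2 difference is small because 1 is added to each FPKM. Ciita, the class II transactivator, stayed below the level needed for the test. It was at 0.119 to 0.191 FPKM in sham, at 0.0648 to 0.190 FPKM at 24 h and at 0.103 to 0.462 FPKM at 28 d. Ciita shares exon positions with Dexi on the opposite strand. Nlrc5, Tap2, H2-Q4 and H2-T22 also share exon positions with other gene models on the opposite strand. The limit given for Tap1 holds for the values of all of them.

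The class Ib genes, which show special ligands to few kinds of T and natural killer (NK) cells, did not move as a block. Of 21 class Ib genes 6 were tested at 24 h, and 3 rose. H2-Q4 had the smallest adjusted p of the members tested. Like Tap1 and Nlrc5, it was below 1 FPKM in every sham library and entered the test through the 24 h libraries alone. It was at 0.372, 0.513 and 0.350 FPKM in Sham_C and 0.428, 0.436 and 0.497 in Sham_T, and at 4.70, 2.64 and 4.59 in R24h_C and 2.94, 4.45 and 2.60 in R24h_T. The mean was 8.44-fold that of sham, and the log2 difference was 1.67 (SE 0.13, adjusted p = 5.58e-05). H2-T23, the Qa-1 molecule whose complex is read by the NK receptor of Klrd1 and Klrc1, rose from 2.08 to 2.89 FPKM in sham to 3.02 to 6.73 FPKM (0.86, SE 0.14, adjusted p = 0.00221). H2-M3, which presents N-formylated bacterial and mitochondrial peptides, was at 0.510 to 1.37 FPKM in sham and 1.25 to 2.30 at 24 h (0.54, SE 0.13, adjusted p = 0.0116), with overlap.

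The other 3 class Ib genes tested did not pass. H2-T22, a ligand of gamma-delta T cells, was at 5.37 ± 0.439 FPKM in sham and 6.28 ± 0.987 at 24 h (SD, n = 6 each; adjusted p = 0.160). H2-T24 was at 3.27 ± 0.411 and 2.92 ± 0.872 FPKM (adjusted p = 0.450). The pseudogene H2-M6-ps was at 2.67 ± 0.402 and 1.94 ± 0.995 FPKM (-0.37, SE 0.18, adjusted p = 0.137), and R24h_T1 held its highest value of 3.84 FPKM. H2-Q6 and H2-Q7 were too low in most libraries for the 24 h test. H2-Q6 was at 0.00 to 0.186 FPKM in sham and 0.386 to 1.52 at 24 h, and H2-Q7, a gene of the Qa-2 molecule, was at 0.0155 to 0.130 and 0.226 to 1.29 FPKM, so neither overlapped. H2-Q6, H2-Q7 and H2-T22 share 10.8%, 12.0% and 8.86% of their stretches of 100 bases with other annotated transcripts, so that reads can be assigned among these paralogs. For H2-K1 and H2-D1 the shares were 0.957% and 3.59%.

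Of class II at 24 h the invariant chain rose, and the alpha and beta chains, which did not pass, were high in some libraries and at sham level in others. The difference between the classes was not tested. Cd74 (ENSMUSG00000024610) was at 1.06, 2.36 and 1.83 FPKM in Sham_C and 2.36, 2.29 and 1.26 in Sham_T. The R24h_C libraries held 23.0, 3.46 and 11.9 FPKM and the R24h_T libraries 2.45, 22.4 and 5.04 FPKM. All 6 exceeded sham, R24h_T1 only just, and the range among them was wide. The log2 difference was 1.74 (SE 0.46, adjusted p = 0.0199). The call was lost without the filter on low genes (adjusted p = 0.0534) and without the 4 libraries with Ttr above 100 FPKM (1.89, adjusted p = 0.0871).

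H2-Aa, the alpha chain of I-A, was at 0.258 to 0.994 FPKM in sham. The R24h_C libraries held 4.42, 0.305 and 1.79 FPKM and the R24h_T libraries 0.298, 3.68 and 0.956 FPKM. H2-Ab1, its beta chain, was at 0.249 to 1.31 FPKM in sham, at 5.04, 0.831 and 2.51 FPKM in R24h_C and at 0.323, 3.82 and 1.34 FPKM in R24h_T. H2-Eb1, the beta chain of I-E, was at 0.249 to 0.850 FPKM in sham, at 3.57, 0.638 and 1.76 FPKM in R24h_C and at 0.386, 3.16 and 1.47 FPKM in R24h_T. For all 3 genes R24h_C2 and R24h_T1 lay within the sham range, as did R24h_T3 for H2-Aa, and R24h_C1 and R24h_T2 were the highest. The means at 24 h were 3.45, 3.80 and 3.59 times those of sham, close to the ratios of H2-D1 and H2-K1. None passed: the log2 differences were 0.70 (SE 0.35, adjusted p = 0.159), 0.88 (SE 0.34, adjusted p = 0.0749) and 0.78 (SE 0.27, adjusted p = 0.0545). Without R24h_C2, H2-Ab1 and H2-Eb1 passed (adjusted p = 0.0464 and 0.0273), and likewise without R24h_T1 (adjusted p = 0.0222 and 0.0179). Each of these omissions gave 14 members higher, where 24.3% of all genes were called without R24h_C2 and 24.7% without R24h_T1. H2-Ea-ps, the defective alpha chain partner of I-E in this strain, was listed at 0 in 17 of the 18 libraries.

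Of the chains of H2-DM, which loads class II, H2-DMb1 was at 0.569 to 1.15 FPKM in sham and 1.38 to 2.88 at 24 h and rose (0.67, SE 0.13, adjusted p = 0.00520). Its partner chain H2-DMa was at 5.96 ± 0.542 FPKM in sham and 5.21 ± 0.992 at 24 h (SD, n = 6 each). It did not pass (-0.18, SE 0.10, adjusted p = 0.229). H2-DMa shares exon positions with Brd2 on the opposite strand, so the limit given for Tap1 holds for its values too. H2-DMb1 shares 11.3% of its stretches of 100 bases with H2-DMb2, which was at 0.124 to 0.630 FPKM in sham and 0.159 to 0.382 at 24 h. H2-Oa and H2-Ob, the chains of H2-O that restrains H2-DM, were at no more than 0.489 and 0.156 FPKM in the sham and 24 h libraries. H2-Eb2 was at most at 0.155 FPKM and H2-Pb at most at 0.0593 FPKM anywhere. H2-Ke6, a hydroxysteroid dehydrogenase gene named for its place in the complex, was at 4.53 ± 0.568 and 4.30 ± 0.907 FPKM (adjusted p = 0.677), and 61.6% of its stretches also lie in an overlapping gene model.

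**Figure D2:**
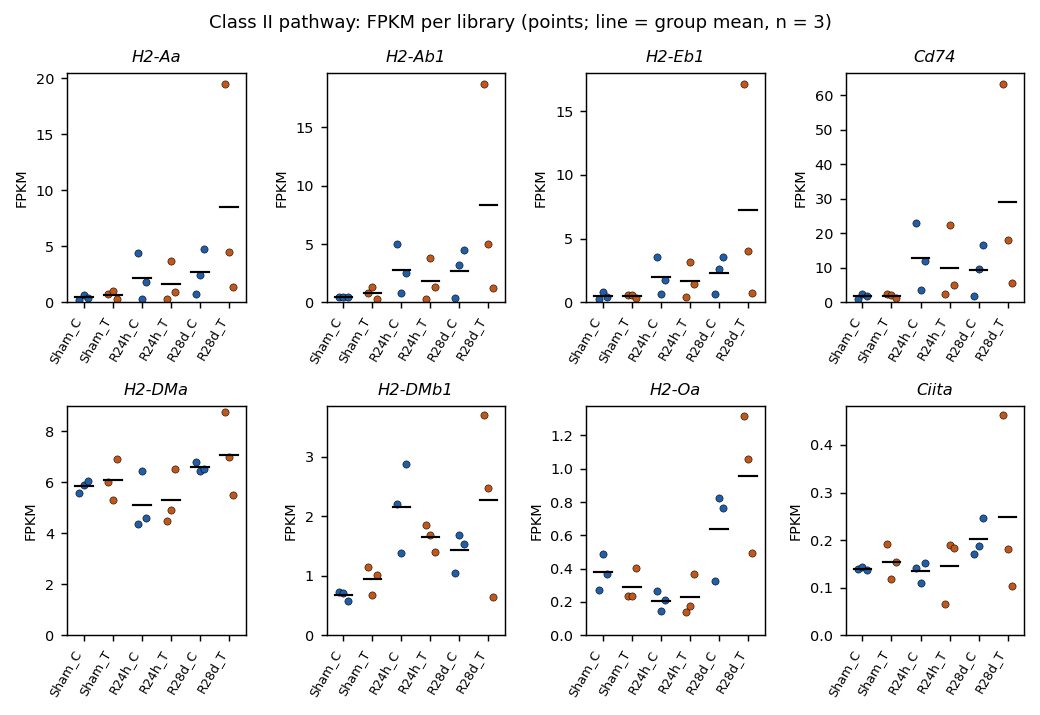
FPKM (vertical axes, linear from 0) of 8 genes of the class II pathway in each library by group; points are libraries (blue, control arm; orange, Tiparp arm) and lines are group means of 3. R28d_T1 holds the highest value of every gene shown, with Cd74 at 63.3 FPKM, and Ciita stays at or below 0.462 FPKM.

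Leaving out the 4 libraries with high Ttr kept 10 of the 12 members higher at 24 h, with 19 tested; Cd74 and H2-M3 (0.62, adjusted p = 0.0542, against 0.54 with all libraries) were lost. Among all genes that omission lowered the number of calls from 3597 to 1427. With median-ratio scaling 12 members were higher, while the share of higher genes among all calls went from 78.2% to 58.1%.

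Markers of other cell types also changed at 24 h, and in bulk tissue a change in the number of cells and in the RNA per cell cannot be told apart. The summed FPKM of 6 monocyte markers was 1.44 to 2.27 in sham and 5.74 to 46.2 at 24 h, and 3 of 3 tested were higher. That of 5 border macrophage markers was 0.888 to 1.13 and 2.68 to 27.4, with 4 of 4 tested higher, and that of 6 neutrophil markers was 0.556 to 1.85 and 4.63 to 199, with 4 of 5 tested higher. With such low sums in sham, markers of these lists entered the test mainly through the 24 h libraries. Their counts therefore describe the tested markers alone. Among all genes tested 19.3% were higher and 5.38% lower. Among lists of resident cells, endothelial markers summed to 7.56 to 10.5 and 17.2 to 80.8 (5 of 5 higher), meningeal and fibroblast markers to 4.20 to 9.12 and 11.2 to 49.4 (4 of 5 higher), and astrocyte markers to 307 to 393 and 461 to 741 (2 of 5 higher). Of 6 microglial markers 1 was higher and 2 lower (P2ry12 and Siglech), with sums of 63.8 to 71.5 and 60.7 to 97.6. The 5 neuron markers, of which 0 passed, summed to 363 FPKM in R24h_C3 and to 676 to 864 in the other 24 h libraries. The 9 T cell markers summed to 8.70 to 12.9 FPKM in sham and 6.56 to 14.1 at 24 h, and 0 of 2 tested passed. Most of that sum was Trbc2, at 1.02 to 11.3 FPKM at 24 h, and Cd4, while the defining markers Cd3e and Cd8a were at no more than 0.134 and 0.167 FPKM. The 5 B cell markers, none of which could be tested, summed to 0.139 to 0.354 FPKM in sham and 0.377 to 0.704 at 24 h, without overlap, with Cd79a at 0.217 to 0.528 FPKM and Ms4a1 listed at 0 in every sham and 24 h library. The part of these cells in the rise of class I and Cd74 was not tested.

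At 28 d H2-D1, H2-K1, B2m, H2-Q4, H2-Q6, H2-Aa, H2-Ab1, H2-Eb1 and Cd74 had means at least 2.60 times those of sham, with a wide range among the 6 libraries, and no member passed. The means of H2-Q7 and Nlrc5, which were not tested at 28 d, were 14.45 and 4.60 times those of sham. Without R28d_T1 the ratios of B2m, H2-K1 and H2-D1 were 2, 2.25 and 2.70. Of 20 members tested, 0 were called over both arms, against 1 of 14242 genes (0.00702% higher, 0.00% lower), and 16 members had an unadjusted p below 0.05, as 17.3% of all genes had. Their adjusted p ran from 0.129 to 0.568, and 19 of the 20 log2 differences were above 0. The members' median was 0.61 and that of all genes 0.04. H2-Aa, H2-Eb1, H2-K2, H2-Q4 and H2-Q6 were below 1 FPKM in every sham library. They entered the test through the 28 d libraries alone, so these counts and the median describe the tested members only.

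H2-D1 was at 10.1, 32.4 and 25.6 FPKM in R28d_C and at 79.7, 38.9 and 17.1 FPKM in R28d_T. H2-K1 was at 5.14, 13.4 and 11.9 FPKM in R28d_C and at 31.9, 17.1 and 6.05 FPKM in R28d_T. B2m was at 100, 231 and 180 FPKM in R28d_C and at 543, 306 and 150 FPKM in R28d_T. R28d_C1 lay in the sham range of all 3 genes, and R28d_T1 was the highest library of the series. The log2 differences from sham were 1.50 for H2-D1 (SE 0.35, adjusted p = 0.129), 1.18 for H2-K1 (SE 0.32, adjusted p = 0.136) and 1.16 for B2m (SE 0.29, adjusted p = 0.129).

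Cd74 was at 1.99, 9.57 and 16.7 FPKM in R28d_C and at 63.3, 18.1 and 5.55 FPKM in R28d_T, which gave a mean 10.3-fold that of sham (2.20, SE 0.54, adjusted p = 0.129) and one of 5.59-fold without R28d_T1. H2-Aa was at 0.730, 2.48 and 4.79 FPKM in R28d_C and at 19.5, 4.52 and 1.42 FPKM in R28d_T (1.59, SE 0.45, adjusted p = 0.143). H2-Ab1 was at 0.397, 3.16 and 4.46 FPKM in R28d_C and at 18.7, 5.00 and 1.25 FPKM in R28d_T (1.52, SE 0.48, adjusted p = 0.155). H2-Eb1 was at 0.637, 2.62 and 3.59 FPKM in R28d_C and at 17.1, 4.01 and 0.707 FPKM in R28d_T (1.43, SE 0.47, adjusted p = 0.166). For these 4 genes R28d_T1 was above every other library of the series, and R28d_C1 was within the sham range for each. The means of H2-Aa, H2-Ab1 and H2-Eb1 were 10.1, 9.04 and 9.37 times those of sham with R28d_T1 and 5.04, 4.69 and 4.53 times without it.

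H2-Q4 and H2-Q6 were the 2 tested members whose 28 d libraries did not overlap with sham, as 1.19% of all genes did in that direction. Both were below 1 FPKM in every sham library and entered the test through the 28 d libraries alone, so nothing is read from that count. H2-Q4 was at 0.587 to 6.72 FPKM (1.12, SE 0.29, adjusted p = 0.129) and H2-Q6 at 0.190 to 3.25 FPKM (0.76, SE 0.25, adjusted p = 0.164). H2-T23 had the smallest unadjusted p of the members (0.000208), with 2.81 to 6.66 FPKM (0.64, SE 0.12, adjusted p = 0.129). Tap2 was at 1.25 to 3.80 FPKM (0.45, SE 0.15, adjusted p = 0.165), Tapbp at 5.94 to 13.4 (0.52, SE 0.14, adjusted p = 0.135) and H2-DMb1 at 0.639 to 3.69 (0.58, SE 0.20, adjusted p = 0.189). Tap1, Nlrc5 and H2-Q7 were too low for this test, with 0.347 to 1.40, 0.141 to 0.782 and 0.122 to 2.70 FPKM. H2-Oa and H2-Ob were at 0.324 to 1.32 and 0.125 to 0.906 FPKM, with their highest values in R28d_T1.

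The outcome at 28 d turned on single libraries. Without R28d_C1, 10 members were higher (adjusted p from 0.0344 to 0.0462), among them H2-D1, H2-K1, B2m, Cd74, H2-Aa, H2-Ab1 and H2-T23, and 3.80% of all genes were called. Without R28d_T3, 13 were higher and 1, H2-M6-ps, was lower (-0.52, adjusted p = 0.0199), and 8.09% of all genes were called. With array weights, which give libraries that stand apart less say, 13 were higher and H2-M6-ps again lower, and 5.61% of all genes were called. Any other single library left out gave 0 members.

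**Figure D3:**
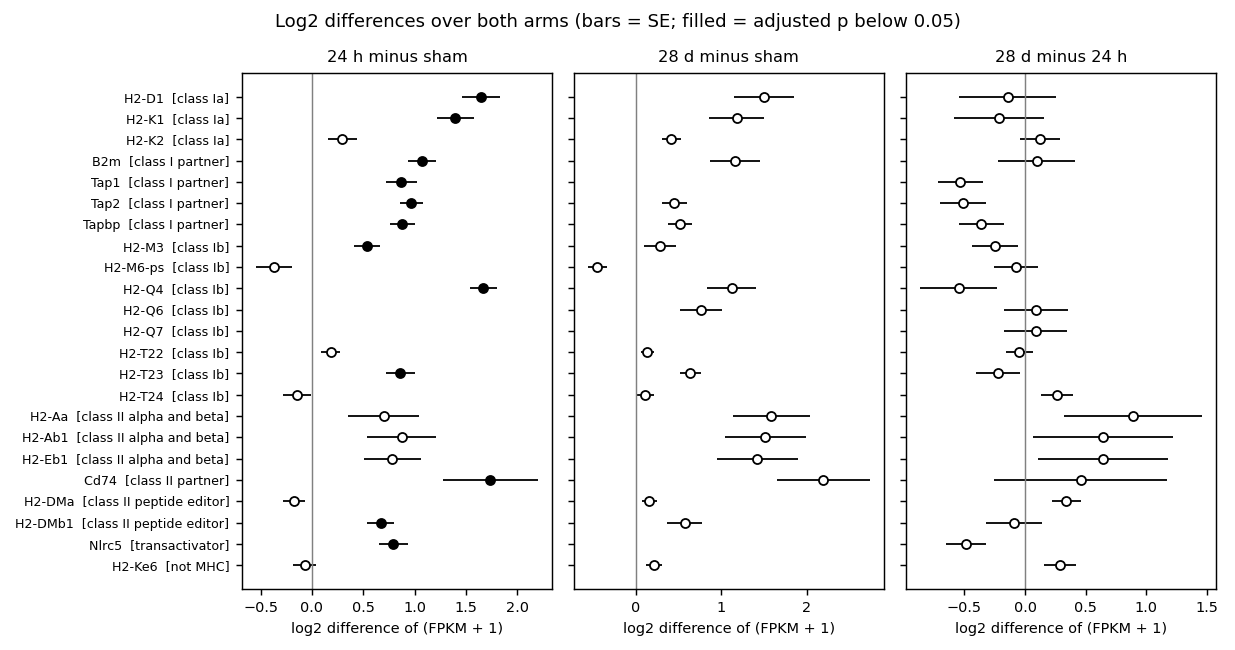
Log2 differences of (FPKM + 1) (horizontal axes) over both arms, from left to right 24 h minus sham, 28 d minus sham and 28 d minus 24 h, for the 23 members with enough signal, ordered by class; points are estimates, bars SE, filled points have an adjusted p below 0.05, and a member without a point was not tested. At 24 h 12 points are filled, and at 28 d the estimates of class II reach further right, with wider bars, and none is filled there or in the panel of 28 d minus 24 h.

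Markers of other cell types at 28 d are given beside these values, and their part was not tested. The sums of the microglial list were 65.9 to 158 FPKM at 28 d and 63.8 to 71.5 in sham. The 8 dendritic cell markers summed to 2.38 to 3.19 FPKM in sham and 3.29 to 8.30 at 28 d. Among them Itgax, which microglia also take up, was at 0.0124 to 0.102 FPKM in sham. Itgax was at 0.237, 1.22 and 0.948 FPKM in R28d_C and at 4.38, 4.01 and 0.633 FPKM in R28d_T. Xcr1 reached no more than 0.0627 FPKM. The 5 B cell markers summed to 0.139 to 0.354 FPKM in sham and 0.288 to 4.21 at 28 d, with Cd79a at 2.22 FPKM in R28d_T1 and 1.40 in R28d_C3. Monocyte markers summed to 2.12 to 14.0 FPKM, T cell markers to 6.04 to 12.7, astrocyte markers to 357 to 1252 and meningeal and fibroblast markers to 8.47 to 43.9. Cd3e was at no more than 0.170 FPKM. The 6 NK cell markers summed to 0.00 to 0.902 FPKM at 28 d, against 0.00 to 0.0421 in sham and 0.00 to 2.89 at 24 h. Of these the marker Ncr1 was at no more than 0.0843 FPKM. Of these lists 6 microglial, 2 dendritic cell, 1 monocyte, 2 T cell, 5 astrocyte and 5 meningeal or fibroblast markers were tested at 28 d, and 0 passed. Border macrophage markers summed to 0.888 to 1.13 FPKM in sham and 1.04 to 6.83 at 28 d. Among the 28 d libraries R28d_T1 had the highest sum of each of these lists. R28d_C3 held more class II than R28d_C2. Its microglial sum (82.8 against 124.6 FPKM), astrocyte sum and NK cell sum were lower. Its sums of the other lists, such as B cells (2.30 against 0.522 FPKM), were higher. Which cells held class II was not tested.

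Set side by side, the median share of class II relative to class I was highest at 28 d, with overlap between the times. The summed FPKM of H2-Aa, H2-Ab1 and H2-Eb1 was 2.73% to 8.36% of the summed FPKM of all 24 class I heavy chain genes in sham (median 4.95%, n = 6). At 24 h it was 13.4%, 3.22% and 6.76% in R24h_C and 1.36%, 13.4% and 7.22% in R24h_T (median 6.99%). At 28 d it was 5.46%, 11.5% and 20.6% in R28d_C and 36.1%, 17.0% and 7.32% in R28d_T (median 14.2%). The 24 h values reach below and above the sham range, and 4 of the 6 values at 28 d lie above it. This share was described and not tested, and against H2-K1 and H2-D1 alone its medians were 11.1%, 11.2% and 21.1%.

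The levels behind the share differ between the times. The sum of H2-K1 and H2-D1 was 2.23, 4.69 and 4.28 times the sham mean in R24h_C2, R24h_C1 and R24h_C3, and 3.13, 3.57 and 2.19 times in R24h_T1, R24h_T2 and R24h_T3. The class II sum was 1.06, 7.79 and 3.63 times, and 0.602, 6.37 and 2.25 times, in the same libraries. R24h_T1 thus held class I at 3.13 times and class II at 0.602 times the sham mean. At 28 d every library with class I above the sham range also had class II above it: R28d_C2, R28d_C3, R28d_T1, R28d_T2 and R28d_T3 were at 3.28, 2.69, 7.98, 4.01 and 1.66 times for class I and at 4.94, 7.68, 33.1, 8.09 and 2.02 times for class II. R28d_C1 was at 1.09 and 1.06 times. Cd74 per class II FPKM was 0.784 to 1.50 in sham, 1.34 to 2.43 at 24 h and 1.13 to 1.64 at 28 d.

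**Figure D4:**
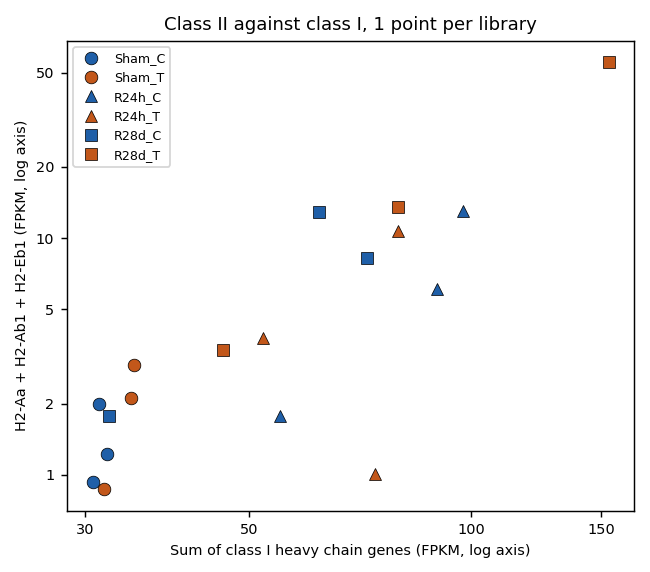
Summed FPKM of H2-Aa, H2-Ab1 and H2-Eb1 (vertical, log axis) against that of all class I heavy chain genes (horizontal, log axis), 1 point per library; circles are sham, triangles 24 h and squares 28 d, blue the control arm and orange the Tiparp arm. The 24 h libraries R24h_T1 and R24h_C2 lie to the right of sham at sham height, and R28d_T1 lies far up at the right.

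The direct test of 28 d against 24 h called 0 of 23 members over both arms, where 1.47% of 14756 genes were higher and 1.50% lower, and 4 members had an unadjusted p below 0.05, a smaller share than the 25.7% of all genes. The median difference was -0.14 over 15 class I genes and partners and 0.55 over 6 class II genes, while that of all genes was -0.06. The 4 were Nlrc5 (-0.49, SE 0.17, adjusted p = 0.103), Tap1 (-0.53, SE 0.19, adjusted p = 0.109), H2-DMa (0.34, SE 0.12, adjusted p = 0.111) and Tap2 (-0.51, SE 0.19, adjusted p = 0.120). H2-Aa differed by 0.89 (95% interval -0.34 to 2.12, adjusted p = 0.333) and H2-D1 by -0.14 (-1.01 to 0.73, adjusted p = 0.848), so neither a rise nor a fall of these was resolved. With all 18 libraries in 1 fit, Nlrc5, Tap1 and Tap2 passed as lower (adjusted p = 0.0314, 0.0343 and 0.0285) and H2-DMa as higher (adjusted p = 0.0470). The same 4 passed without R24h_T3 (adjusted p = 0.0133, 0.0236, 0.0455 and 0.0423). Of all genes 17.2% were called with all 18 libraries in 1 fit and 17.9% without R24h_T3. These shares are close to that of the members, so nothing particular to the members is read from the calls.

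The question of the hairpin is how the arms compare. In the control arm at 24 h, 10 of 16 members tested were higher and 1, H2-M6-ps, was lower (-0.69, SE 0.13, adjusted p = 0.0170), where 19.8% and 4.24% of 13880 genes were. In the Tiparp arm 2 of 16 were higher, H2-Q4 (1.55, SE 0.17, adjusted p = 0.0277) and H2-D1 (1.45, SE 0.19, adjusted p = 0.0469), where 0.133% of 13509 genes were higher and 0.0888% lower. H2-Q4 was below 1 FPKM in every sham library and entered the test through the 24 h libraries alone. The arms share no libraries in these comparisons, and their log2 differences for H2-D1 were 1.85 (SE 0.27) and 1.45 (SE 0.19). The counts moved with single libraries, from 5 to 8 higher in the control arm (5 without R24h_C1) and from 0 to 5 in the Tiparp arm (5 without R24h_T3, 0 without any other). Of all genes 2.41% were called in the control arm without R24h_C1 and 6.23% in the Tiparp arm without R24h_T3. The difference between the arms' 24 h responses was called for 0 of 21 members and 0.00% of all genes, with 1 member, H2-Ke6, at an unadjusted p below 0.05. For it the difference was -0.49 (SE 0.19, adjusted p = 0.415), and the other members had larger adjusted p.

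At 28 d, 0 of 14 members in the control arm and 0 of 17 in the Tiparp arm were called against sham, where 0.0224% of genes were higher and 0.0298% lower in the control arm, and 0.00738% each in the Tiparp arm, and 9 and 10 members had an unadjusted p below 0.05, as 11.5% and 10.5% of all genes had. Without R28d_C1 the control arm count was 6, with 1.41% of all genes called, and without R28d_T3 the Tiparp arm count was 7, with 4.26% of all genes called. The difference of the 28 d responses was called for 0 of 20 members (0.00702% of genes higher), with an unadjusted p below 0.05 for 1, H2-K2. In the fits within an arm, at 24 h and 28 d, members below 1 FPKM in sham could enter only through the stroke libraries. The counts of those fits therefore describe the tested members alone.

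Set directly against each other, the arms differed for 0 of 12 members in sham (0.0824% of genes higher and 0.127% lower), 0 of 21 at 24 h and 0 of 20 at 28 d (0.00% of genes each), with 1, 0 and 1 members at an unadjusted p below 0.05. In sham H2-K1 was at 6.19, 5.20 and 4.77 FPKM in the Tiparp arm and 3.78, 4.13 and 4.62 in the control arm, without overlap, as 10.6% of all genes were in that direction (0.30, SE 0.10, adjusted p = 0.314). At 24 h the difference, Tiparp arm less control arm, was -0.28 for H2-K1 (95% interval -0.94 to 0.39) and -0.50 for Cd74 (-2.37 to 1.36). At 28 d it was 0.85 for H2-D1 (-0.63 to 2.34), 0.86 for B2m (-0.35 to 2.07) and 1.28 for Cd74 (SE 0.95). The intervals are wide enough to hold changes of either sign, and R28d_T1 and R28d_C1 stand at opposite ends of the 28 d values.

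**Figure D5:**
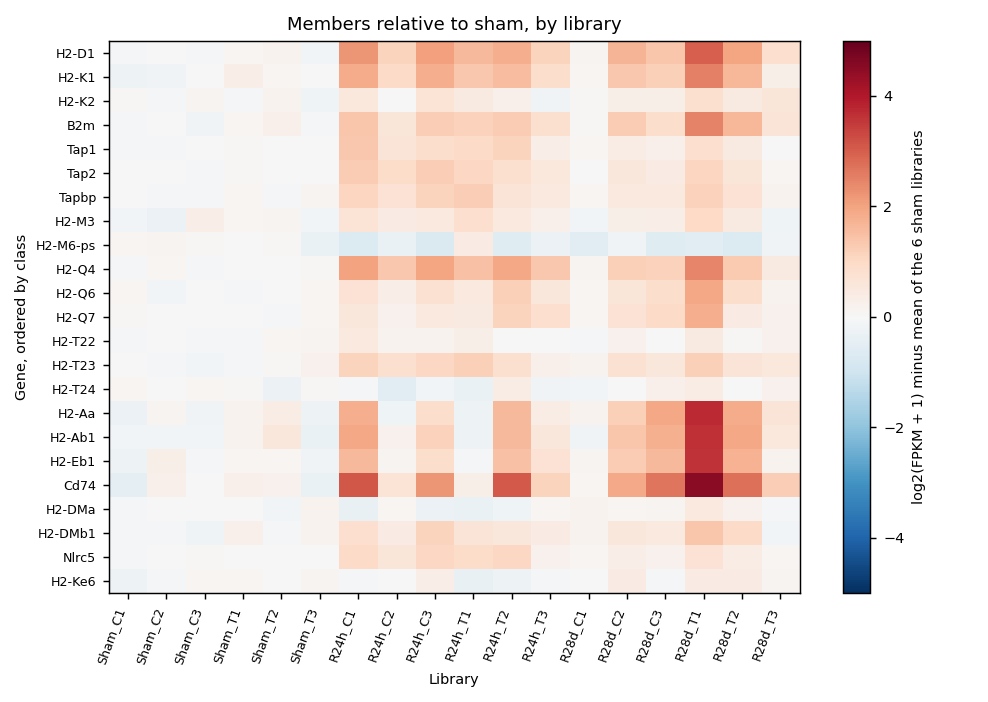
Log2(FPKM + 1) of the 23 members minus their mean over the 6 sham libraries (colour scale; red above, blue below), 1 column per library and rows ordered by class. The rows of H2-K1, H2-D1, B2m and H2-Q4 are red in all R24h columns, those of H2-Aa, H2-Ab1 and H2-Eb1 in some of them, R28d_C1 is pale throughout, and R28d_T1 is the darkest column.

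Genes that work with the members were followed by lists. Among all genes tested 19.3% were higher and 5.38% lower at 24 h, and 17.3% had an unadjusted p below 0.05 at 28 d. List genes below 1 FPKM in every sham library, such as Psmb8, entered the tests against sham through the stroke libraries alone. The counts below therefore describe the tested genes only. Of 13 genes of class I processing and loading, 12 were tested at 24 h and 9 were higher, 0 lower, with a median of 0.50. The immunoproteasome subunit Psmb8 was at 0.337 to 0.597 FPKM in sham and 1.50 to 3.61 at 24 h (1.13, SE 0.12, adjusted p = 0.000314), and Psmb10 changed by 0.33 (SE 0.09, adjusted p = 0.0190). Erap1, which trims peptides in the endoplasmic reticulum, rose by 0.71 (SE 0.09, adjusted p = 0.000829). The proteasome activator genes Psme1 and Psme2 (0.50 and 0.70), the peptide editor Tapbpl (0.50) and the chaperones Calr (0.46), Pdia3 (0.75) and Hspa5 (1.02) also passed, with adjusted p between 0.00350 and 0.0305. Canx (0.33, adjusted p = 0.0575) and Psme3 (0.21, adjusted p = 0.0852) did not. At 28 d 0 of 12 were called, with 5 at an unadjusted p below 0.05, and Psmb8 was at 0.488 to 2.84 FPKM (0.66, SE 0.19, adjusted p = 0.146).

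Of 9 genes of class II processing, 6 were higher and 0 lower at 24 h, with a median of 0.89. The lysosomal thiol reductase Ifi30 was at 2.18 to 3.19 FPKM in sham and 6.30 to 27.7 at 24 h (2.17, SE 0.25, adjusted p = 0.000419). The proteases Ctsl (1.80), Ctsz (1.50), Lgmn (1.15), Ctss (0.89) and Ctsb (0.74) rose, with adjusted p between 0.00122 and 0.00457. Cathepsin S, Ctss, which cuts the invariant chain, was higher in R24h_T1, at 72.9 FPKM, than in any sham library (32.5 to 35.5), though that library held class II at sham level. The cathepsin inhibitor Cst3 (-0.30, adjusted p = 0.194) and March1, whose product removes class II from the surface (-0.11, adjusted p = 0.369), did not pass. At 28 d 0 of 9 were called and 8 had an unadjusted p below 0.05, with Ctss at 41.2, 149 and 81.4 FPKM in R28d_C and 279, 157 and 68.1 FPKM in R28d_T, all above sham (1.62, SE 0.35, adjusted p = 0.129). Of all genes 1.19% lay wholly above sham at 28 d.

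Of 16 regulators of MHC promoters, 15 were tested at 24 h and 9 were higher, 0 lower, with a median of 0.44. Among these were the interferon response genes Irf9 (0.96, SE 0.19, adjusted p = 0.00498), Irf1 (0.88), Stat2 (0.74) and Irf8 (0.73), the nuclear factor kappa B subunits Rela (0.66) and Nfkb1 (0.42), the X box factor Rfxank (0.56) and Creb1 (0.44). The other X box subunits Rfx5 (0.11) and Rfxap (0.07) and the Y box subunits Nfya (0.31), Nfyb (0.06) and Nfyc (0.21) did not pass. At 28 d 0 of 15 were called, with 8 at an unadjusted p below 0.05. Irf8, a factor of myeloid cells, was at 0.713 to 3.86 FPKM against 0.473 to 0.656 in sham (0.86, SE 0.20, adjusted p = 0.129). Its values did not overlap with sham, as those of 1.19% of all genes did not in that direction. Irf8 entered this test through the 28 d libraries alone, so nothing is read from that. In the test of 28 d against 24 h, 1 of the 15, Stat2, was lower (-0.61, SE 0.15, adjusted p = 0.0481), where 1.50% of all genes were. Interferon gamma itself, Ifng, reached no more than 0.171 FPKM in any library, while the receptor subunits Ifngr1 (0.59), Ifnar2 (0.67) and Ifnar1 (0.22) were higher at 24 h (adjusted p = 0.00131, 0.00573 and 0.0399).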

How the data were processed

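Ipsilateral cortex RNA from 18 libraries in 6 groups of 3 was used. The FPKM values per gene are as deposited by the authors. HISAT, StringTie, edgeR and the genome build mm9 are named, with no versions or settings, per the submitters' processing notes, and libraries were poly(A)-selected and stranded per the labels' protocols. The table holds no read counts, so depth could be judged only roughly and no count test was made. FPKM are relative to the whole library, so a few very abundant genes lower the values of the others, and paralogs can exchange reads.

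Genes that reached 1 FPKM in 3 or more of the libraries compared were tested on log2(FPKM + 1) with limma 3.58.1 (R 4.3.3, trended empirical Bayes) and adjusted by Benjamini-Hochberg over all genes tested, with a threshold of 0.05. Comparisons over both arms had the arm as a term (12 libraries), and differences of responses were interaction terms. All 3 comparisons between sham, 24 h and 28 d share libraries with another of them. The fits were tested on simulated data. Sums, ratios and figures used Python 3.11.15, numpy 2.4.6, pandas 2.3.3 and matplotlib 3.10.9.

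Members with at least 1 FPKM in at least 3 of the 18 libraries were named with values, the rest by range and count, and of the pathway lists every gene that passed over both arms and up to 4 others. The members and lists were chosen with earlier results of these data known. Some list genes are counted but not reported here by name. Annotation for overlaps and shared stretches was GENCODE's for GRCm38, and no coordinates were carried between builds. Replicate numbers did not pair the libraries and were not used as a block. The alternatives tried were median-ratio scaling, array weights, 0.1 in place of 1 as pseudocount, all genes unfiltered, the block, all 18 libraries in 1 fit, each library left out, the libraries with Ttr above 100 FPKM left out, and class I without class Ib.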

Additional observations from a re-analysis of the deposited data

How the results depend on the processing

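In the 3 comparisons over both arms, in which single members were followed, no called member reversed its direction; in the comparisons within and between arms only counts were recomputed. At 24 h against sham, 379 results of single members under the alternatives kept their side of the threshold, 9 gained it and 3 lost it; at 28 d against sham 334 kept it and 38 gained it, and at 28 d against 24 h 422 kept it and 12 gained it. The deposited values carry no counts, so what depth limits could not be computed, and members below about 1 FPKM move little on the log2(FPKM + 1) scale. The causes of the changes below were not tested.

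For 24 h against sham over both arms (3597 genes called, 12 members higher, 0 lower), array weights gave 1 member lower, and without the libraries of high Ttr 1427 genes were called. For 28 d against sham over both arms (1 gene, 0 members), array weights gave 799 genes, 13 members higher and 1 lower, while all 18 libraries in 1 fit and the omission of high Ttr libraries gave 0 genes each. For 28 d against 24 h (439 genes, 0 members), 20 genes were called with no filter, 116 with the replicate block, 2434 with array weights (3 members lower), 2542 with all 18 libraries (1 member higher, 3 lower) and 0 without high Ttr libraries. For 24 h in the control arm (3335 genes, 10 members higher, 1 lower) the counts were 1769 with no filter, 1992 with the block and 7561 with array weights (2 members lower), and median-ratio scaling moved the higher share of calls from 82.4% to 61.0%. For 24 h in the Tiparp arm (30 genes, 2 members higher) they were 65 with a pseudocount of 0.1, 1 with no filter (0 members), 49 with scaling, 70 with the block (4 members), 79 with array weights and 68 with all 18 libraries (0 members). For 28 d in the control arm (7 genes) they were 3 with no filter, 1 with the block, 12 with array weights and 0 with all 18. For 28 d in the Tiparp arm (2 genes) they were 1 with a pseudocount of 0.1, with no filter and with scaling, 0 with the block and with all 18, and 2407 with array weights (12 members higher, 1 lower). Between the arms in sham (28 genes) they were 6 with no filter and with the block, 48 with array weights and 0 with all 18, and at 24 h 12 with all 18 (0 otherwise reported). The difference of the 28 d responses (1 gene) gave 5 with no filter and 21 with array weights. The sham median of class II as a share of class I was 11.12% without class Ib and 4.95% with it.

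Leaving out 1 library at a time gave 2033 to 5193 genes, 12 to 14 members higher and 0 to 1 lower for 24 h over both arms, and 1 to 1148 genes, 0 to 13 higher and 0 to 1 lower for 28 d. For 28 d against 24 h it gave 2 to 2628 genes, 0 to 1 higher and 0 to 3 lower. In the control arm it gave 320 to 4854 genes, 5 to 8 higher and 0 to 2 lower at 24 h, and 2 to 188 genes and 0 to 6 higher at 28 d. In the Tiparp arm it gave 0 to 825 genes and 0 to 5 higher at 24 h, and 0 to 568 genes and 0 to 7 higher at 28 d. The arms differed in 5 to 52 genes in sham, 0 to 2 at 24 h and 0 to 0 at 28 d, and their responses in 0 to 23 genes at 24 h and 1 to 3 at 28 d. A group left with 2 libraries takes its spread from the pooled fit.

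Over all pairs of libraries from different groups, same-numbered pairs had deviations from their group means with a median correlation of -0.00823 (-0.418 to 0.210), and 4 of 45 were above 0.1, against 18 of 90 pairs of unlike number. The replicate numbers therefore share only a label, and the block is given above only as an alternative.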

Other observations

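Receptors and ligands that meet MHC molecules on other cells were also listed. The limit given for the pathway lists holds for genes low in sham here too, such as Cd274, and 19.3% of all genes tested were higher at 24 h. Lag3, an inhibitory receptor that binds class II, was at 2.33 to 4.35 FPKM in sham and 3.19 to 5.60 at 24 h (0.41, SE 0.14, adjusted p = 0.0453, limma). The R28d_C libraries held 5.71, 12.0 and 7.39 FPKM and the R28d_T libraries 23.0, 16.8 and 6.66 FPKM, so that every library, R28d_C1 included, lay above every sham library (1.52, SE 0.27, adjusted p = 0.129). The same held for 1.19% of all genes at 28 d. The myeloid inhibitory receptor genes Lilrb4a (2.04, SE 0.36, adjusted p = 0.00287) and Pirb (1.31, SE 0.25, adjusted p = 0.00394) rose at 24 h, which makes 3 of 4 tested genes of this list with Lag3. Cd4 was at 1.10 to 3.11 FPKM in sham and 0.317 to 1.97 at 28 d (-0.84, SE 0.22, adjusted p = 0.129), and Cd8a was at no more than 0.242 FPKM in any library.

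Of 6 co-stimulatory and inhibitory ligands 3 were tested at 24 h. Cd274, the ligand of the receptor PD-1, rose (1.24, SE 0.21, adjusted p = 0.00254), with 0.346 to 0.646 FPKM in sham and 0.807 to 4.49 at 24 h, and so did Cd86, the ligand of CD28 (0.90, SE 0.19, adjusted p = 0.00749). Icosl did not pass (0.09, adjusted p = 0.408). Of the class I-like genes outside the H2- names, Procr (1.43, SE 0.26, adjusted p = 0.00324), the endothelial protein C receptor, and Hfe (0.72, SE 0.15, adjusted p = 0.00633), an iron regulator, rose at 24 h. Procr was lower at 28 d than at 24 h (-1.26, SE 0.27, adjusted p = 0.0367). At 28 d against sham 0 genes of these lists were called.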
